A study of Mus musculus with 6 samples.

Results

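The cornified envelope genes followed here were the 50 of 32285 genes in the count tables whose symbol starts with Sprr or Lce, together with Lor, Flg, Flg2, Hrnr, Ivl, Rptn, Cdsn, Tgm1, Tgm3, Crct1, Dsc1, Dsg1a, Sbsn and Krtdap. The rule used gene symbols only. Of these, 15 were Sprr genes, 21 were Lce genes and 14 stood singly. The data were droplet single-cell RNA sequencing with a 5′ kit from the skin of female mice of 17 to 18 weeks, after removal of the hypodermis, enzymatic digestion and sorting of live cells by CD45, a surface protein of leukocytes. Wild type (WT) mice were C57BL/6. The other mice carried UP_Del, which removes an upstream enhancer of Il2ra, the gene that encodes a subunit of the interleukin-2 receptor, and were sampled with alopecia (hair loss) or without it. All mice are labelled as untreated and as of C57/BL6 genotype, and how many mice a library holds was not stated in the sources used. Each group had 1 library of CD45-positive and 1 of CD45-negative cells. No test between groups was therefore possible, and each ratio below compares 2 libraries, with intervals that cover counting error only.

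The cornified envelope is the shell that replaces the plasma membrane of a keratinocyte at the skin surface. Basal keratinocytes, which make Krt5 and Krt14, move up, switch to Krt1 and Krt10 as spinous cells, and as granular cells make loricrin, filaggrin and the small proline-rich (Sprr) and late cornified envelope (Lce) proteins. Transglutaminases then cross-link these proteins beneath the membrane, lipids are bound to the outside, and modified desmosomes hold the dead cells together until they are shed. The upper hair follicle, marked by Krt79, forms a cornified lining of its own where it opens to the surface.

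Of the 50 members, 43 lay on chromosome 3 between positions 92080271 and 93399442 (build mm10), the cluster known as the epidermal differentiation complex. Krtdap and Sbsn lay on chromosome 7, and the other 5 elsewhere. RefSeq promoter sequences (GRCm38.p6) were found for 45 of the 50 members. The promoters of 6 members that the results turn on are given here, because these 6 differed in where they were expressed while sharing sequence words in this window. Each is the stretch from 200 to 16 bases before the RefSeq start of the gene, 5′ to 3′ on the strand of the gene. Capitals mark matches to the AP-1 word TGANTCA and to the TATA word TATAAA.
Krtdap: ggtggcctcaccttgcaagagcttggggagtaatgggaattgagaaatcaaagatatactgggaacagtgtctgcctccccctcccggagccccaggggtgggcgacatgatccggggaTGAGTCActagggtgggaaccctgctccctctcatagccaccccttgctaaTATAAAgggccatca
Sbsn: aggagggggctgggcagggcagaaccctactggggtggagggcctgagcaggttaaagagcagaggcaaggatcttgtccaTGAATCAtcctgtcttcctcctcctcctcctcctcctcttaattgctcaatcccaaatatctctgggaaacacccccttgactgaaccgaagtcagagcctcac
Sprr1a: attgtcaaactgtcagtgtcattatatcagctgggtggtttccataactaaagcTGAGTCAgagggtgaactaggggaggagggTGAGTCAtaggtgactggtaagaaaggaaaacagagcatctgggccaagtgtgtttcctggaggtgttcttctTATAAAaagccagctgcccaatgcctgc
Sprr1b: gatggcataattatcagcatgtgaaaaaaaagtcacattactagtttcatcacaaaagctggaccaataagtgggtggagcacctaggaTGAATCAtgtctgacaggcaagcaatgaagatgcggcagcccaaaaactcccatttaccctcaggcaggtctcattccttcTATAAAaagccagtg
Ivl: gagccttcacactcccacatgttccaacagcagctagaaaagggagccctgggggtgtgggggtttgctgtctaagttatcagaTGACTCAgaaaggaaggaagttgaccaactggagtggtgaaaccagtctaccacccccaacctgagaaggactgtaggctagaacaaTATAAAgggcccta
Lor: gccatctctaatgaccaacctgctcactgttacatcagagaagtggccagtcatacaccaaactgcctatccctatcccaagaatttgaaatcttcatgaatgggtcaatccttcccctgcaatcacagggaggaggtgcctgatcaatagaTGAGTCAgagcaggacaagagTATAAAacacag
These windows lie at chr7:30787705-30787889 on the plus strand for Krtdap and chr7:30751271-30751455 on the plus strand for Sbsn. On the minus strand of chromosome 3 they lie at chr3:92485897-92486081 for Sprr1a, chr3:92438795-92438979 for Sprr1b, chr3:92573751-92573935 for Ivl and chr3:92083158-92083342 for Lor. The AP-1 word began 81 bases before the start in Krtdap, 119 in Sbsn, 111 in Sprr1b, 116 in Ivl and 48 in Lor, and Sprr1a held it at both 146 and 116 bases. The TATA word lay from 27 to 43 bases before the start in 5 of the 6, and the Sbsn window held none. The window of Sprr4, also searched but not printed, held neither the AP-1 nor the TATA word. Searched on both strands, TGANTCA was found in 16 of the 45 member windows (35.6%) and in 5.20% of all 32851 windows of this length. Of the 16, 7 were Sprr2 genes, which are close copies of each other. TATAAA was found in 19 of the 45 (42.2%) against 9.50% of all windows, CACCC in 21 (46.7%) against 43.0%, and AACCNGGTT in 0 against 0.180%. A match is a description of these letters and not evidence of binding.

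The CD45-negative libraries held 4575 (WT), 7123 (UP_Del with alopecia) and 16751 (UP_Del without alopecia) barcodes, of which 3278, 4778 and 14372 were kept with median depths of 4992, 5617 and 5424.5 UMIs (unique molecular identifiers, counts of distinct RNA molecules). The libraries were not alike before filtering: 22.3%, 27.4% and 6.18% of their barcodes exceeded 10% mitochondrial UMIs. Of the barcode sequences, 48 to 149 were shared by a pair of these libraries. The members took 0.0237% to 0.0402% of UMIs in the CD45-positive libraries and 0.196% to 0.272% in the CD45-negative ones, in which they were followed. Keratinocytes were split by keratin UMIs alone into Krt10 cells (276, 422 and 2033 cells in the order WT, with alopecia, without alopecia), cells positive for both Krt10 and Krt79 (106, 128 and 381), Krt79 cells (436, 573 and 1279) and Krt5/Krt14 cells (543, 1083 and 5230). These are ranges of keratin level and not cell types, and 16.2% to 18.7% of Krt10 cells, 26.8% to 35.9% of cells with both keratins, 20.4% to 27.4% of Krt79 cells and 6.12% to 10.3% of Krt5/Krt14 cells lay near a cut. Marker genes went with the labels. The summed level of Krt1, Krt10, Krt77 and Dmkn was 14242 to 18796 CPM (counts scaled to the same total of UMIs in every compartment and library) in Krt10 cells and 679 to 991 CPM in Krt5/Krt14 cells, and that of 5 upper follicle genes was 28159 to 35419 CPM in Krt79 cells and 480.0 to 669 CPM in Krt10 cells, although Krt10 and Krt79 themselves defined the cells.

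Few members were detected in depth. In the 4 keratinocyte compartments 40 members had at least 1 UMI and 25 had at least 20, namely 7 Sprr genes, 5 Lce genes and 13 of the 14 single genes. No UMI in any CD45-negative library was counted for 9 members, 3 of them Sprr and 6 Lce genes. Krtdap, which encodes the secreted keratinocyte differentiation-associated protein, took 47.1% of the 354072 member UMIs. Sbsn (suprabasin, a secreted protein of the suprabasal layers) took 27.7%, Sprr1a 12.4% and Dsg1a (desmoglein 1, a desmosomal cadherin) 7.34%, so that these 4 genes made up 94.5%. All 21 Lce genes together had 236 UMIs, and the highest level of any of them was 3.86 CPM, that of Lce1m in WT Krt10 cells. Sprr2 and Lce1 genes are near-identical copies. How reads common to such copies were counted was not checked, so their single and summed values, zeros among them, are uncertain.

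Most measurable members stood higher in Krt10 than in Krt5/Krt14 cells. Of 12 members with at least 20 UMIs in sum over the compared compartments of every library, 9 were at least 1.5-fold higher in Krt10 than in Krt5/Krt14 cells in all 3 libraries (Krtdap, Sbsn, Dsg1a, Dsc1, Ivl, Lor, Cdsn, Crct1 and Sprr1b), while 5.68% of the 11489 genes measured this way were. The transglutaminase gene Tgm3 was lower in all 3 libraries, as were 16% of all genes, and Sprr1a and Sprr2a3 did not pass 1.5-fold in all 3. The median log2 ratio of the measured members was 3.68 in WT, 1.87 with alopecia and 2.14 without alopecia, beside -0.15, -0.16 and -0.10 over all genes. Without the few cells rich in late members described further on, 10 members in place of 12 were measured, and 7 in place of 9 were higher in all 3 libraries, because Cdsn and Crct1 fell under 20 UMIs. Of the 9, 3 had at least 20 UMIs in both compartments of every library (Krtdap, Sbsn and Dsg1a), a minimum added after the values were seen.

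**Figure D1:**
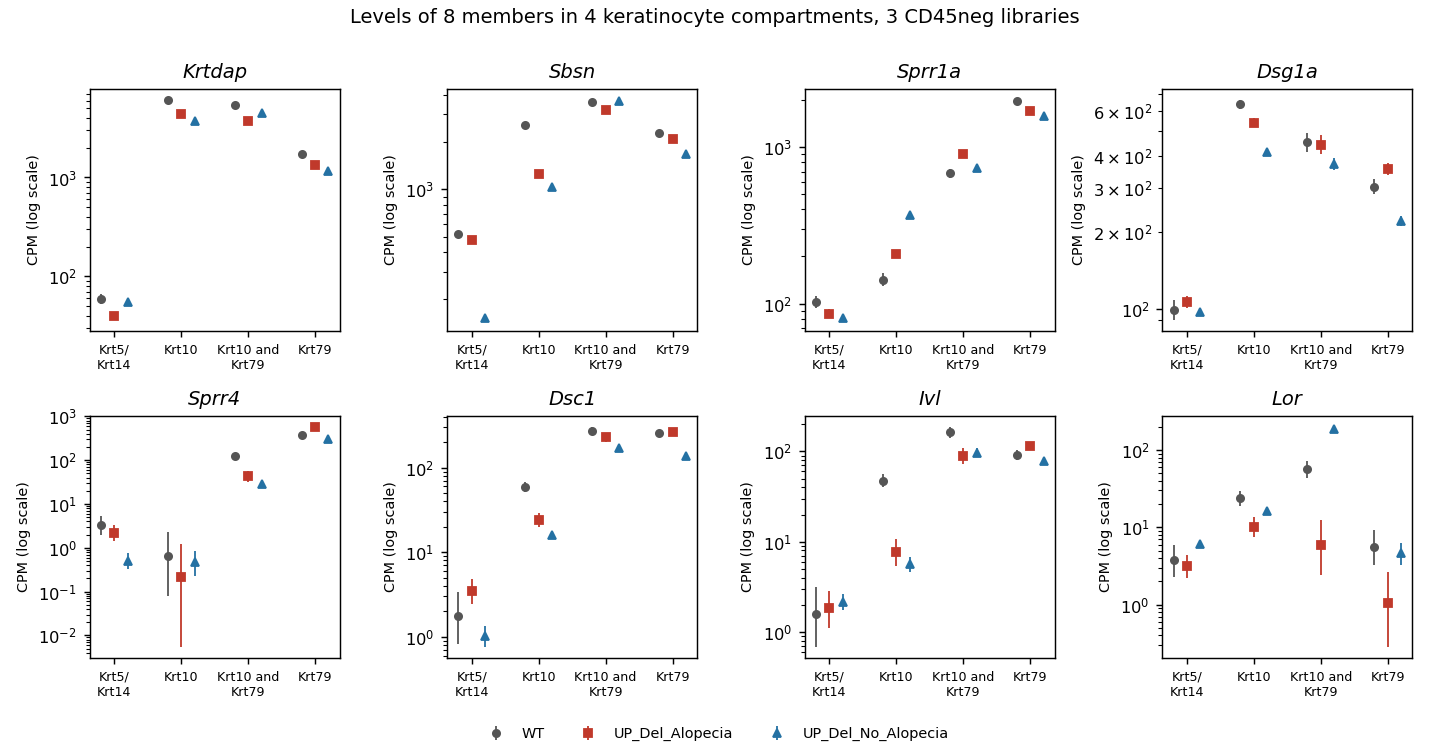
Levels (CPM, log axis) of the 8 members that reached 100 CPM in any compartment, by keratinocyte compartment on the horizontal axis and by library (WT grey circles, UP_Del with alopecia red squares, UP_Del without alopecia blue triangles); lines are 95% Poisson intervals for counting error. Dsg1a stood highest in Krt10 cells of every library and Sprr1a and Sprr4 in Krt79 cells of every library, while Krtdap stood highest in Krt10 cells of WT and UP_Del with alopecia and in cells with both keratins of UP_Del without alopecia.

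Krtdap had the largest ratio between Krt5/Krt14 and Krt10 cells of the 4 members with most UMIs. It stood at 59.4, 39.9 and 54.4 CPM in Krt5/Krt14 cells of WT, UP_Del with alopecia and UP_Del without alopecia, and at 6054, 4436 and 3737 CPM in their Krt10 cells. The log2 ratios were 6.67, 6.80 and 6.10, and the levels of the compartments did not overlap between libraries. In fibroblast cells, which should lack it, Krtdap was at 4.04 to 8.14 CPM. After thinning every cell to 1000 UMIs, 74.5%, 70.4% and 59.2% of Krt10 cells held a Krtdap UMI (85.1%, 82.0% and 72.5% unthinned) and 0.747% to 0.867% of fibroblast cells did.

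Sbsn was less tied to Krt10. It was at 517 and 476 CPM in Krt5/Krt14 cells of WT and UP_Del with alopecia and at 151 CPM in those of UP_Del without alopecia, against 4.54 to 9.07 CPM in fibroblast cells. In Krt10 cells it was at 2553, 1251 and 1034 CPM, a log2 ratio of 2.30, 1.39 and 2.77. It was highest in cells positive for both keratins, at 3608, 3174 and 3653 CPM, and at 2291, 2092 and 1671 CPM in Krt79 cells. Sbsn was thus present in all 4 compartments, with the lowest level in Krt5/Krt14 cells of each library.

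The desmosomal cadherins, both on chromosome 18, differed from each other. Dsg1a was at 96.7 to 106 CPM in Krt5/Krt14 cells and at 639, 541 and 416 CPM in Krt10 cells. Dsc1, desmocollin 1, was at 1.02 to 3.47 CPM in Krt5/Krt14 cells and at 59.2, 24.1 and 15.9 CPM in Krt10 cells. Its levels were higher in follicular cells, at 273, 230 and 169 CPM in cells with both keratins and 255, 267 and 139 CPM in Krt79 cells. Dsg1a went the other way and was lower in Krt79 than in Krt10 cells, with log2 ratios of -1.08, -0.61 and -0.91.

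Krt79 cells carried a different selection of members. Of 13 members measured in all libraries, 5 were at least 1.5-fold higher in Krt79 than in Krt10 cells in all 3 (Sprr1a, Sprr4, Ivl, Dsc1 and Tgm1), beside 9.17% of all genes. A further 4 were lower in all 3 (Krtdap, Dsg1a, Lor and Sprr1b), beside 7.72% of all genes. Lor had 16, 4 and 37 UMIs in Krt79 cells of WT, with alopecia and without alopecia, and Tgm1 16, 4 and 45 in Krt10 cells. In WT and with alopecia both thus passed the count minimum through the higher compartment alone. A count with at least 20 UMIs in both compartments was not computed for this comparison. The median log2 ratio of the measured members was -0.16, 1.20 and 1.503 in WT, with alopecia and without alopecia, so the median changed sign between libraries; over all genes it was -0.07, -0.03 and 0.04.

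Sprr1a and Sprr4 encode small proline-rich cross-bridging proteins. Sprr1a was at 1968, 1711 and 1588 CPM in Krt79 cells and at 142, 207 and 367 CPM in Krt10 cells, log2 ratios of 3.79, 3.05 and 2.11. Sprr4 was at 384, 557 and 302 CPM in Krt79 cells, where 87, 163 and 216 cells held a UMI of it, and at 0.215 to 0.643 CPM in Krt10 cells. The Sprr4 ratios rest on 1 to 10 UMIs on the Krt10 side. The log2 ratios were 9.22, 11.34 and 9.34. Sprr1b, the closest relative of Sprr1a, did not share this pattern. It was at 25.4, 10.3 and 31.5 CPM in Krt10 cells and at 2.11, 1.30 and 0.995 CPM in Krt79 cells. These Sprr1b levels rest on few cells, namely 6, 11 and 76 Krt10 cells with a UMI. A single WT cell held 36 of the 79 WT Krt10 UMIs. In Krt79 cells there were 6, 5 and 8 UMIs, in 3, 1 and 2 cells. Thus the pair of Sprr1 genes, which flank Sprr3 on chromosome 3 and both hold the AP-1 and TATA words shown above, stood on opposite sides of the comparison.

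Involucrin (Ivl), an early scaffold protein of the envelope, was at 91.7, 115 and 77.5 CPM in Krt79 cells and at 47.6, 7.74 and 5.60 CPM in Krt10 cells. It was at 1.58 to 2.16 CPM in Krt5/Krt14 cells. The Ivl level of WT Krt10 cells stood apart from that of both UP_Del libraries, while its Krt79 levels lay within 77.5 to 115 CPM.

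Cells positive for both Krt10 and Krt79 combined features of both compartments. Of 11 members measured in all libraries, 5 were at least 1.5-fold higher than in Krt10 cells in all 3 (Sprr1a, Sprr4, Ivl, Dsc1 and Crct1), beside 6.16% of all genes. None was lower in all 3, beside 6.85% of all genes. The median log2 ratio of the measured members was 0.99, 2.12 and 2.19, and over all genes it was -0.06, -0.03 and -0.02. Krtdap stayed close to its Krt10 level, at 5386, 3702 and 4544 CPM, while Sprr1a stood between those of the 2 compartments at 681, 903 and 742 CPM. Whether droplets with 2 cells added to this compartment after doublet removal was not tested.

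Of the transglutaminases, Tgm3 on chromosome 2 was the exception to the suprabasal pattern. It was at 18.1, 27.5 and 5.02 CPM in Krt5/Krt14 cells, at 4.50, 10.8 and 3.13 CPM in Krt10 cells and at 0.249 to 2.08 CPM in Krt79 cells. Kept cells in none of the compartments, which can include other follicle cells, held it at 11.6, 18.6 and 3.56 CPM. Tgm1 on chromosome 14, the enzyme of the interfollicular envelope, was at 0.860 to 5.15 CPM in Krt10 cells and at 8.32 to 10.9 CPM in Krt79 cells.

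Within Krt10 cells the members were followed over 3 stages, set by the share of Krt10 in the Krt10, Krt5 and Krt14 UMIs of a cell with cuts at 0.503 and 0.981. The libraries differed in their make-up, as 24.3%, 29.6% and 45.9% of the Krt10 cells of WT, UP_Del with alopecia and UP_Del without alopecia lay in stage 1, which held most Krt5 and Krt14, and 43.5%, 36.5% and 20.5% in stage 3. Krtdap was at 1483, 6968 and 8060 CPM in stages 1, 2 and 3 of WT. The 3 levels were 1252, 4444 and 7554 CPM with alopecia and 1109.9, 4880 and 8648 CPM without alopecia. Krtdap was therefore lowest in stage 1 and highest in stage 3 of every library, and its stage 3 levels lay closer together than its levels over all Krt10 cells. Dsg1a had the same order of stages, with 492, 646 and 725 CPM in WT, 347, 573 and 703 CPM with alopecia and 308, 471 and 604 CPM without alopecia. Sbsn also had it in both UP_Del libraries, at 503, 1027 and 2184 CPM with alopecia and 287, 1305 and 2525 CPM without. In WT its highest level was in stage 2, at 4071 CPM, between 621 CPM in stage 1 and 2333 CPM in stage 3. When 6 of the 89 WT stage 2 cells that were rich in late members were left out, the stage 2 level of Sbsn was 1682 CPM and that of stage 3 was 2330 CPM. Sprr1a was at 272, 375 and 604 CPM in stages 1, 2 and 3 of UP_Del without alopecia, at 156, 260 and 210 CPM with alopecia and at 67.2, 177 and 156 CPM in WT. Its order of stages thus differed between libraries. Without the 6 cells its WT stage 2 level was 78.9 CPM, between those of stages 1 and 3, and with alopecia stage 2 stood highest with and without such cells.

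**Figure D2:**
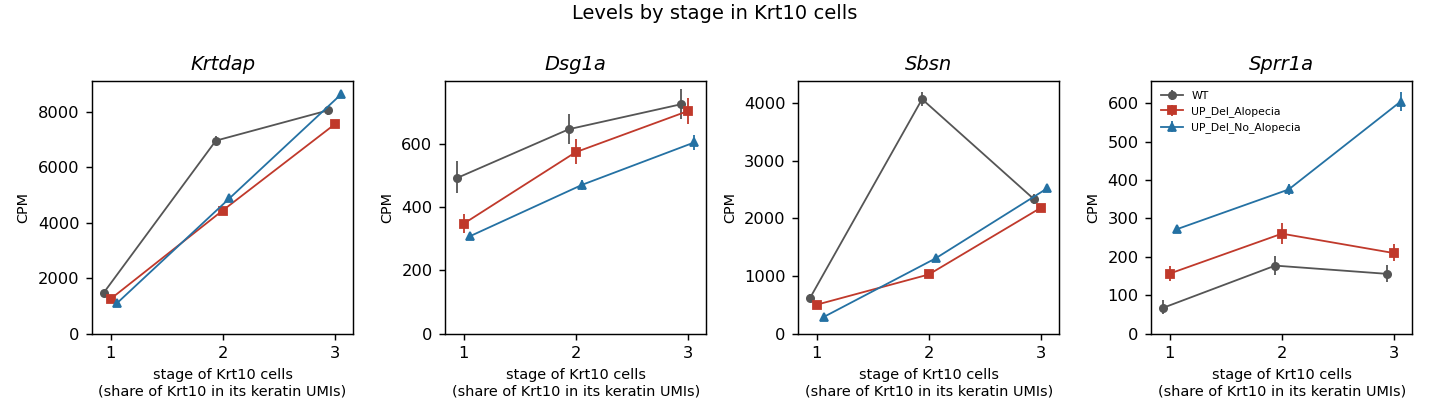
Levels (CPM) of Krtdap, Dsg1a, Sbsn and Sprr1a in 3 stages of Krt10 cells, from stage 1 (lowest share of Krt10 among the Krt10, Krt5 and Krt14 UMIs) to stage 3, in the 3 CD45-negative libraries; bars are 95% Poisson intervals. Krtdap and Dsg1a were highest in stage 3 of each library, and WT Sbsn peaked in stage 2 at 4071 CPM.

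In Krt10 cells Krtdap and Sbsn went together from cell to cell more than either did with Sprr1a, and in Krt79 cells Sbsn went with both. In thinned Krt10 cells (275 in WT, 416 with alopecia and 2000 without) the Spearman correlation of Krtdap with Sbsn was 0.48, 0.42 and 0.42, and that with Krt10 was 0.61, 0.53 and 0.50. That of Krtdap with Sprr1a was 0.10, 0.07 and 0.01, and that of Sbsn with Sprr1a 0.05, 0.08 and 0.08. In thinned Krt79 cells (430, 565 and 1258) Sbsn correlated with Krtdap at 0.36, 0.41 and 0.43 and with Sprr1a at 0.39, 0.42 and 0.43. In the same cells Sprr1a correlated with Sprr4 at 0.29, 0.50 and 0.44 and with Krt79 at 0.32, 0.41 and 0.36. Cells of a library share its preparation and are not replicates, so these values are descriptions.

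The first comparison of groups asks whether the members differ with alopecia among UP_Del mice. In Krt10 cells, of 15 members with at least 20 UMIs in sum, 2 were at least 1.5-fold higher with alopecia than without (Tgm3 and Dsc1), where 11.3% of 12380 genes were higher. Lower with alopecia were 6 (Flg2, Sprr2h, Sprr1b, Tgm1, Sprr1a and Lor), where 9.44% of all genes were lower. The median log2 ratio was -0.31 for the measured members and 0.02 for all genes. Krtdap, Sbsn and Dsg1a differed little, with log2 ratios of 0.25 (95% interval 0.23 to 0.27), 0.27 (0.23 to 0.32) and 0.38 (0.31 to 0.44). Sprr1a was at 207 CPM with alopecia and at 367 CPM without, a log2 ratio of -0.83 (-0.92 to -0.73), and its WT level of 142 CPM lay below both. Sprr1b stood at 10.3 and 31.5 CPM, a log2 ratio of -1.61 (-2.06 to -1.19). Tgm3 was at 10.8 and 3.13 CPM, a log2 ratio of 1.78 (1.22 to 2.33). Flg2 had 1 UMI with alopecia and 39 without, a log2 ratio of -3.08 (-8.42 to -0.52), and Sprr2h had 1 and 25 UMIs, a log2 ratio of -2.44 (-7.80 to 0.17). Tgm1 had 4 and 45 UMIs, so these 3 of the 6 lower members passed the count minimum through a single library. With at least 20 UMIs in each library, a limit added after the values were seen, 3 of 10 measured members were lower (Sprr1b, Sprr1a and Lor), where 4.67% of all genes were. The 25 Sprr2h UMIs lay in 3 cells. The Dsc1 value of 0.60 (0.28 to 0.91) was 0.23 when the 3 stages were weighted alike, under the 1.5-fold limit.

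The other comparisons set each UP_Del library against the same WT library, so they share its deviations. In Krt10 cells of UP_Del with alopecia, 1 of 15 measured members was at least 1.5-fold higher than in WT (Tgm3), where 5.17% of 10675 genes were higher. Lower than in WT were 10 (Flg2, Cdsn, Flg, Ivl, Tgm1, Crct1, Sprr1b, Dsc1, Lor and Sbsn), where 6.67% of all genes were lower. In UP_Del without alopecia, 1 of 17 was higher (Sprr1a), where 9.07% of 12301 genes were higher, and 11 were lower (Flg, Cdsn, Ivl, Lce1m, Flg2, Dsc1, Crct1, Sbsn, Tgm1, Krtdap and Dsg1a), where 14.7% of all genes were lower. The median log2 ratio of the measured members was -1.30 with alopecia and -1.29 without, beside -0.01 and -0.05 for all genes. Flg2, Flg, Tgm1 and Lce1m had at most 45 UMIs in any Krt10 library, and a member that passes the minimum through WT alone has to be lower than in WT. With at least 20 UMIs in each library, 6 of 9 measured members were lower with alopecia (Cdsn, Ivl, Sprr1b, Dsc1, Lor and Sbsn), where 4.57% of all genes were, and none was higher, as Tgm3 was under the minimum. Without alopecia 8 of 11 were lower, where 11.2% of all genes were, and Flg, Lce1m and Tgm1 were under the minimum. With a mean over cells in place of summed UMIs, 6 members were higher without alopecia than in WT and 6 were lower, and Krtdap, Dsg1a, Crct1, Lce1m and Tgm1 were no longer among the lower. The share of all genes was not computed for this mean.

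Among the abundant members, Sbsn at 2553 CPM in WT, 1251 with alopecia and 1034 without had log2 ratios to WT of -1.03 (-1.08 to -0.98) and -1.30 (-1.34 to -1.27). Krtdap had log2 ratios of -0.45 (-0.48 to -0.42) and -0.70 (-0.72 to -0.67), and Dsg1a of -0.24 (-0.32 to -0.15) and -0.62 (-0.69 to -0.55). The WT library was thus the highest of the 3 for these genes. With the stages weighted alike, the values without alopecia were -0.17 for Krtdap, -0.43 for Dsg1a and -0.77 for Sbsn, so Krtdap and Dsg1a no longer passed 1.5-fold and Sbsn did. Of the members with fewer UMIs, Ivl at 47.6, 7.74 and 5.60 CPM had log2 ratios to WT of -2.62 (-3.19 to -2.09) and -3.09 (-3.45 to -2.73). Cdsn, corneodesmosin of the modified desmosomes, at 65.6, 4.30 and 5.97 CPM had -3.93 (-4.67 to -3.27) and -3.46 (-3.79 to -3.13). Its 204 WT UMIs lay in 9 of 276 cells, and 3 UMIs were left in WT without the 7 late cells described further on, beside 38 without alopecia and 2 with alopecia. Flg, the filaggrin precursor, had 25 UMIs in WT, 4 with alopecia and 5 without, log2 ratios of -3.23 (-5.21 to -1.69) and -5.11 (-6.85 to -3.70), and 2 of its WT UMIs were left without those cells. Sprr1a went against the members named in this paragraph, with log2 ratios to WT of 0.55 (0.38 to 0.71) with alopecia and 1.37 (1.23 to 1.51) without. The value with alopecia was under the 1.5-fold limit, which Tgm3 passed there. Sprr1b also stood above WT without alopecia, at 31.5 against 25.4 CPM, within 1.5-fold.

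**Figure D3:**
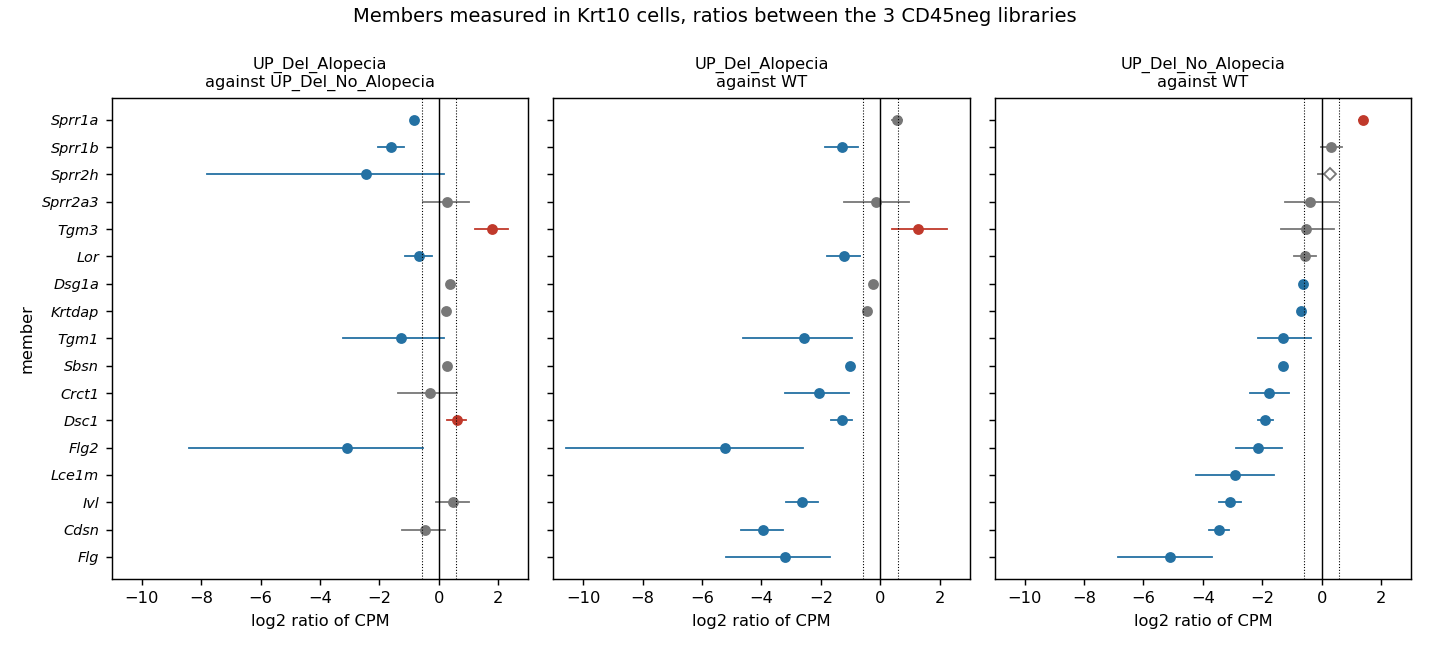
Log2 ratios of CPM in Krt10 cells for each member with at least 20 UMIs in sum, in the 3 comparisons of libraries; lines are 95% intervals for counting error, dotted lines mark 1.5-fold, and red, blue and grey mark higher, lower and within 1.5-fold (an open diamond marks a gene with a count of 0 set to 3). Against WT most measured members lie to the left in both UP_Del libraries, and Sprr1a lies to the right at 0.55 and 1.37.

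Genes of other kinds differed between the same cells. The summed level of 16 genes of the response to tissue dissociation, such as Fos, Jun and Egr1, was 11815 CPM in WT Krt10 cells, 10663 with alopecia and 20539.6 without. Of the 16, 11 were at least 1.5-fold higher without alopecia than in WT, and 12 were lower with alopecia than without. Of the stress keratins, 3 of 3 measured genes were higher than in WT in both UP_Del libraries, with summed levels of 294, 495 and 770.5 CPM in WT, with alopecia and without. Krt16 was at 101 CPM in WT, 169 with alopecia and 285 without, the same order as Sprr1a. Basal markers summed to 9685, 12205 and 14974 CPM. Leukocyte markers summed to at most 44.7 CPM in the keratinocyte compartments. The part of these differences in the member ratios was not tested.

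In Krt10 cells a large part of the UMIs of the late members lay in very few cells, most of all in WT. Counting Lor, Flg, Flg2, Hrnr, Rptn, Crct1, Cdsn and the 21 Lce genes together, cells with at least 10 such UMIs (a limit chosen after the values were seen) made up 7 of 276 Krt10 cells in WT (2.54%, exact 95% interval 1.03% to 5.16%), 2 of 422 with alopecia (0.474%, 0.0574% to 1.70%) and 6 of 2033 without alopecia (0.295%, 0.108% to 0.641%). The 7 WT cells held 332 of the 381 late UMIs (87.1%). The 2 cells with alopecia held 37 of 88 (42.0%), and the 6 cells without alopecia 281 of 637 (44.1%). Their median depths were 53709, 17445 and 16780.5 UMIs, against 8596.5, 10419 and 10103 over all Krt10 cells. Not all of them were deep, since 1 of the 7 WT cells and 3 of the 6 cells without alopecia lay below the median of their compartment, the shallowest at 906 and 1809 UMIs. Whether any of these droplets held more than a single cell was not tested. Among cells with both keratins, late cells held 78.8%, 19.0% and 89.7% of the late UMIs in WT, with alopecia and without alopecia. Among Krt79 cells they held 51.0%, 31.0% and 5.73%.

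In WT the late cells differed from the other Krt10 cells in several members and markers at once. Cdsn was at 607 CPM in them and at 1.08 CPM in the others, and Ivl at 314 and 15.8 CPM. Sbsn was at 9930 and 1674 CPM, and Krtdap at 10287 and 5550 CPM. Of the granular markers, which are no members, the protease gene Asprv1 was at 426 and 40.7 CPM and Calm4 at 2949 and 1355 CPM. Casp14, at 57.4 and 51.5 CPM, and Krt2, at 6.04 and 4.68 CPM, differed little. The member Sprr1b went the other way, at 12.1 and 27.0 CPM. In UP_Del without alopecia Cdsn was at 621 CPM in the late cells and at 1.78 CPM in the others, and Sbsn at 10259 and 971 CPM. With alopecia Sbsn was at 12439 and 1166 CPM. Of the 2 late cells there, 1 held 417 Sbsn UMIs among 21963 and the other 17 among 12927. Late cells were chosen by late members, Cdsn among them, so the Cdsn values follow from the choice, while Sbsn, Krtdap, Ivl and Asprv1 did not enter it. Summed over the late cells, Sbsn was higher than in the other Krt10 cells in all 3 libraries, with alopecia mainly through a single cell.

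**Figure D4:**
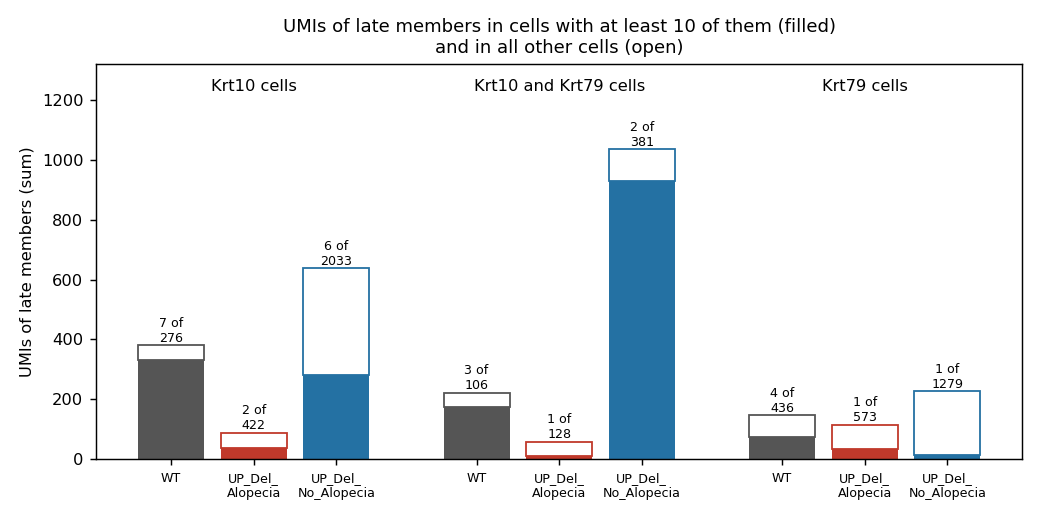
UMIs of the 28 late members summed over the Krt10 cells, the cells with both keratins and the Krt79 cells of each CD45-negative library; the filled part lies in cells with at least 10 such UMIs, whose number of all cells stands above each bar. In WT Krt10 cells 7 of 276 cells held 332 of 381 UMIs.

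Leaving these cells out, a comparison added after the values were seen, changed the counts against WT. The share of all genes called was not computed without these cells. Counts without them, here and in other paragraphs, are therefore not read against a share. With alopecia, 2 in place of 10 members were at least 1.5-fold lower than in WT in Krt10 cells, Ivl and Sprr1b, and 2 were higher, Tgm3 and Sprr1a. The measured members were 10 in place of 15. Of the 8 that left the lower group, Cdsn, Crct1, Flg, Flg2 and Tgm1 fell under 20 UMIs, and Dsc1, Lor and Sbsn came within 1.5-fold. Without alopecia, 6 in place of 11 were lower, namely Ivl, Dsc1, Sbsn, Tgm1, Dsg1a and Krtdap, of 14 measured in place of 17. Of the 5 that left, Flg, Flg2 and Lce1m fell under 20 UMIs and Crct1 came within 1.5-fold. Cdsn had 3 UMIs left in WT and 38 without alopecia. Cdsn, Crct1, Lor, Flg, Flg2 and Lce1m helped to choose the cells left out. Nothing is therefore read from their ratios without these cells or from their leaving the lower group. The log2 ratio of Sbsn to WT moved to -0.52 with alopecia and -0.79 without, and that of Ivl to -1.67 and -1.71. That of Dsc1 moved to -0.16 and -0.98 and that of Lor to -0.41 and 0.13. Sprr1a was at 0.80 and 1.75, further above WT than with all cells. Between the UP_Del libraries 4 of the 6 lower members were still lower, including Sprr1a at -0.96, while Flg2 fell under 20 UMIs and Lor came within 1.5-fold.

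In cells with both keratins, ratios of the late members rested on single cells. Of 14 measured members, 1 was at least 1.5-fold higher with alopecia than without (Sprr4), beside 9.15% of 9668 genes, and 5 were lower (Lor, Flg2, Flg, Crct1 and Sprr1b), beside 10.4% of all genes. Against WT, with alopecia 0 of 12 were higher and 5 lower (Flg, Lor, Sprr4, Cdsn and Ivl), beside 9.39% and 7.85% of 8347 genes. Without alopecia 4 of 15 were higher (Flg2, Sprr1b, Lor and Crct1) and 5 lower (Sprr4, Flg, Ivl, Dsc1 and Cdsn), beside 10.8% and 7.53% of 9623 genes. Lor was at 56.6 CPM in WT, 5.97 with alopecia and 185 without, which are 63, 7 and 570 UMIs. A single cell of UP_Del without alopecia, with 36574 UMIs, held 514 of the 570 Lor UMIs (90.2%), 155 of 198 of Crct1 (78.3%) and 73 of 79 of Flg2 (92.4%). A single WT cell of 23380 UMIs held 53 of the 63 Lor UMIs (84.1%) and 60 of 72 of Flg (83.3%). Without the late cells, 1 in place of 5 members was lower with alopecia than without and none was higher, Flg and Flg2 having fallen under 20 UMIs, and the log2 ratio of Lor was 0.02 in place of -4.95. Lor, Flg, Flg2 and Crct1 helped to choose the late cells, so nothing is read from their change. Sprr4, which does not count among the late members, was at 121, 42.6 and 28.2 CPM, in 7, 10 and 11 cells.

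In Krt79 cells Dsc1, Sprr4 and Dsg1a were higher with alopecia than without. Of 12 measured members, 4 were at least 1.5-fold higher with alopecia than without (Flg, Dsc1, Sprr4 and Dsg1a), beside 7.04% of 11676 genes, and 2 were lower (Lor and Crct1), beside 11.5% of all genes. Against WT none of 12 was higher in either UP_Del library, beside 6.74% of 10569 genes with alopecia and 12.8% of 11493 genes without. Lower than in WT were 3 with alopecia (Lor, Crct1 and Cdsn), beside 5.71% of all genes, and 3 without (Cdsn, Flg and Dsc1), beside 6.29%. Several of these calls rest on few UMIs. In WT, with alopecia and without, Lor had 16, 4 and 37, Crct1 33, 17 and 67, and Flg 14, 17 and 15. Single WT cells held 12 of the 14 Flg UMIs and 31 of the 70 Cdsn UMIs. Counts with at least 20 UMIs in each library are not given for Krt79 cells. The median log2 ratio of the measured members was 0.25 with alopecia against without, -0.18 with alopecia against WT and -0.45 without alopecia against WT, beside -0.04, 0.03 and 0.08 for all genes. Without the late cells, 1 member in place of 3 was lower than in WT in each UP_Del library (Crct1 with alopecia and Dsc1 without), and Lor and Flg, 1 in each comparison, were lost by falling under 20 UMIs. Lor, Flg, Cdsn and Crct1 helped to choose the late cells, so nothing is read from their change.

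Sprr4 in Krt79 cells had a log2 ratio of 0.88 (0.80 to 0.97) with alopecia against without, and Dsc1 of 0.94 (0.82 to 1.07). Sprr1a, the member with most UMIs there, had log2 ratios between libraries from -0.31 to 0.11. The cells with alopecia had the highest Sprr4 level, 557 CPM, while those without alopecia had the lowest Dsc1 level, 139 CPM. In the same cells the 16 dissociation-response genes summed to 14550.2 CPM in WT, 6673 with alopecia and 16285 without, with 14 of 16 at least 1.5-fold lower with alopecia than without. Their part in these ratios was not tested.

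**Figure D5:**
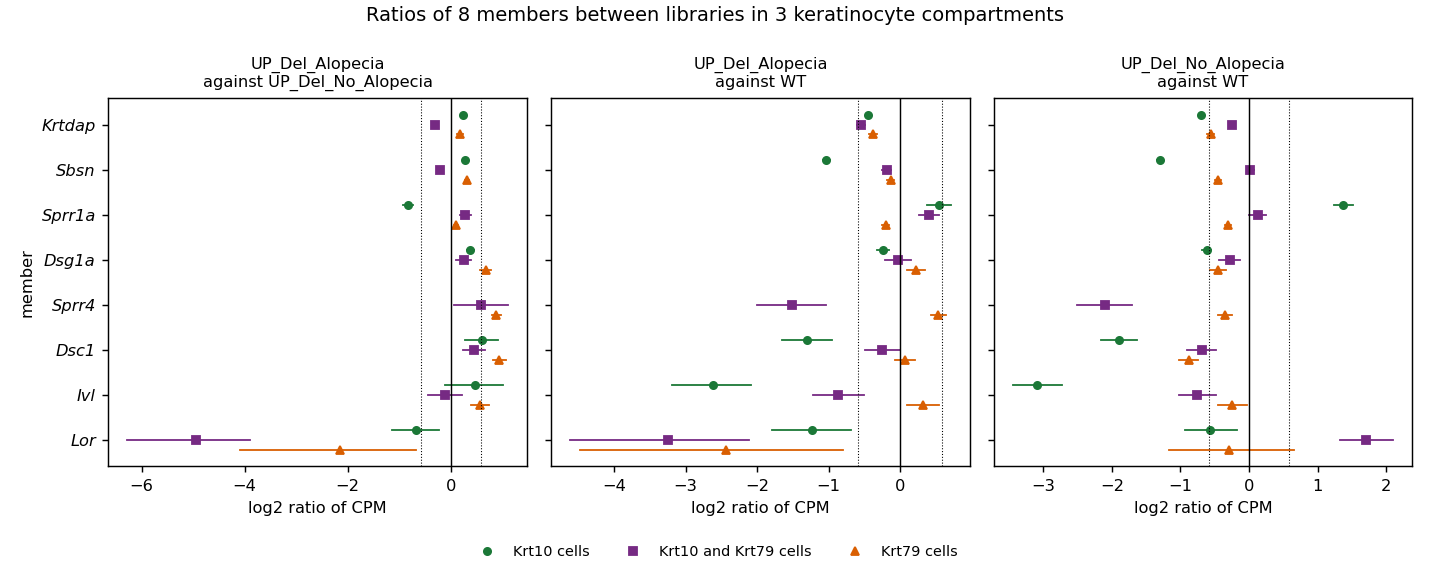
Log2 ratios of CPM between libraries for 8 members in Krt10 cells (green circles), cells with both keratins (purple squares) and Krt79 cells (orange triangles), with 95% intervals for counting error; dotted lines mark 1.5-fold. Sprr1a lies at 1.37 without alopecia against WT in Krt10 cells and at -0.31 in Krt79 cells, and Lor lies at -4.95 with alopecia against without in cells with both keratins.

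In Krt5/Krt14 cells Sbsn was at 517 CPM in WT, 476 with alopecia and 151 without. UP_Del without alopecia was the low library, with a log2 ratio to WT of -1.77 (-1.84 to -1.71), while that with alopecia was at -0.12 (-0.19 to -0.05). Tgm3, at 18.1, 27.5 and 5.02 CPM, was also lowest without alopecia but highest with alopecia, and its log2 ratio with alopecia against without was 2.46 (2.21 to 2.70). Sprr2f had 50 UMIs without alopecia (1.02 CPM), which lay in 7 of 5230 cells with 17 of them in a single cell. It had 1 UMI with alopecia (0.0914 CPM) and 0 in WT, where a count of 0 allows up to 0.592 CPM.

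Other genes of the barrier followed the members across compartments. Of the barrier lipid genes, which make and carry the lipids outside the envelope, 8 of 12 measured were at least 1.5-fold higher in Krt10 than in Krt5/Krt14 cells in all 3 libraries. So were 8 of 13 processing proteases and inhibitors, with 1 lower, 7 of 11 adhesion and plaque genes, with 3 lower, and 8 of 20 differentiation regulators, with 1 lower. Between groups, 5 of 13 proteases and inhibitors were lower with alopecia than in WT in Krt10 cells and 7 of 13 without alopecia. Klk5, a protease that acts in the shedding of dead cells, was at 81.1 CPM in WT, 27.7 with alopecia and 13.5 without. Spink5, which encodes an inhibitor of such proteases, was at 267 CPM in WT, 136 with alopecia and 98.7 without. Both were thus highest in WT and lowest without alopecia, the order that Sbsn also had. Of 13 barrier lipid genes, 4 were lower than in WT with alopecia and 3 without. Alox12b, a lipoxygenase of envelope lipids, was at 7.40, 1.08 and 0.466 CPM. Both UP_Del libraries held under 20 UMIs of Alox12b, so it passed the count minimum through WT alone and had to be lower than in WT. The part of the late cells in the levels of Klk5, Spink5 and Alox12b was not tested. Of 20 regulators, none was higher or lower with alopecia than in WT, and without alopecia 2 were higher and 2 lower. Zfp750, a transcription factor of late differentiation, was at 169 CPM with alopecia and 278 without, a log2 ratio of -0.72 (-0.83 to -0.61). For these lists the shares of all genes given for the same comparisons apply.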

How the data were processed

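Per the submitters' processing notes, Cell Ranger 7.1.0 and build mm10 were used. The deposited values are counts of UMIs per gene and barcode, checked to be whole numbers, and the annotation release is not given in the sources used here. Positions come from GENCODE vM21. Members and gene lists were chosen with earlier results of these data known.

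Barcodes under 500 UMIs, under 300 genes or above 10% mitochondrial UMIs were left out. Doublet scores came from scanpy's simulation, and 0.4% per 1000 barcodes were removed. Per 10000 UMIs of a cell, Krt10 was positive at 10 or more, Krt79 at 5 and Krt5 plus Krt14 at 20, each with at least 3 UMIs. These limits were at or above the 95th percentiles of fibroblast cells (at least 50 collagen UMIs per 10000). Counts were summed by compartment and library and scaled to CPM. A ratio of sums has an exact conditional binomial interval at 95%, was taken for genes of 20 or more UMIs over both sums and was called at 1.5-fold. A sum of 0 was set to 3 counts. With 1 library per group no p-value was computed. Scripts were tested on simulated data. Values in every library are given for members at or above 100 CPM, and named ratios for the 3 highest and 3 lowest members of each comparison in Krt10 cells. Members named beyond this rule were named in full groups or after their values were seen. Alternatives were other filters, doublet rates, thresholds and scalings, a mean over cells and equal weights for stages, and, added after the values were seen, sums without the highest cell or the late cells and a count minimum in each sum. Tools were Python 3.11.15, numpy 2.4.6, scipy 1.17.1, pandas 2.3.3, scanpy 1.11.5, scikit-learn 1.9.0 and matplotlib 3.10.9.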

Additional observations from a re-analysis of the deposited data

Results flagged for a closer look

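Members at least 1.5-fold apart between the same libraries in opposite directions in different compartments, with counting intervals that exclude equal levels in each, were Crct1, Flg and Flg2, and in each case the difference between compartments was not tested. Crct1, without alopecia against WT, had a log2 ratio of -1.76 in Krt10 cells, 1.70 in cells with both keratins and 2.12 in Krt5/Krt14 cells. A single cell held 155 of the 198 Crct1 UMIs of the middle value, and the last rests on 2 UMIs in WT. Flg, with alopecia against without, had a log2 ratio of -2.43 in cells with both keratins, on 5 and 71 UMIs, and of 1.24 in Krt79 cells, on 17 and 15 UMIs. Flg2, without alopecia against WT, had a log2 ratio of -2.14 in Krt10 cells and 4.83 in cells with both keratins, where a single cell held 73 of 79 UMIs. Other members had opposite signs without meeting this in both compartments, such as Sprr1b with alopecia against without, at -1.61 in Krt10 cells and 0.78 (-0.09 to 1.59) in Krt5/Krt14 cells.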

How the results depend on the processing

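No paired analysis was possible because each group had 1 library. The thresholds at the 99th percentile, whose limits equal those used, and the count minimum in each library, which changes no ratio, were left out of this tally. Under the other alternatives 139 log2 ratios of named members gave 1582 recomputed values. Of these, 1245 stayed within their counting interval and 317 moved beyond it in the same direction or without a call. A further 20, from ratios of at least 1.5-fold, changed sign. Sign changes of smaller ratios are not among the 20. For the alternatives no share of all genes was computed, except for the lower counts of Krt10 cells under the count minimum in each library. No cell filter and no doublet removal changed none of the counts of members by more than 1.5 times. The count higher with alopecia than without in Krt10 cells was 1 in place of 2 at 5% mitochondrial UMIs, doubled thresholds, thinned calling, trimmed-mean scaling, scaling without the members, keratins, mitochondrial and ribosomal-protein genes, a mean over cells and equal stages, Dsc1 being lost each time. The count lower was 10 in place of 6 with doubled thresholds and with thinned calling. Higher with alopecia than in WT were 2 in place of 1 at 0.8% doublets, doubled thresholds, a mean over cells, equal stages, without the highest cell of each gene and without late cells. Higher without alopecia than in WT were 2 in place of 1 at 0.8% doublets, doubled thresholds, equal stages and without late cells, 3 with thinned calling and without the highest cell, and 6 with a mean over cells, which gave 6 in place of 11 lower. Without late cells the lower counts against WT were 2 and 6. In cells with both keratins the count higher with alopecia than without was 0 in place of 1 at 5% mitochondrial UMIs, 0.8% doublets, doubled thresholds, both other scalings, equal stages and without late cells, and the count lower was 3 in place of 5 with a mean over cells and 1 without late cells. Against Krt10 cells, 3 in place of 5 were higher with doubled thresholds and 1 in place of 0 lower without the highest cell. Signs changed for Lor in cells with both keratins without alopecia against WT (-1.66 doubled, -1.88 thinned, -0.33 without late cells) and with alopecia against without (0.0202 without late cells). With thinned calling Krt5/Krt14 cells gave Sprr1b -0.34 (with alopecia against without), Sprr4 0.0129 and Dsc1 -0.24 (with alopecia against WT). With a mean over cells they gave Sprr1b -0.46, Sprr4 0.074 and Dsc1 0.10 (without alopecia against WT), and cells with both keratins gave Sprr4 -0.14 and Flg 0.67 (with alopecia against without). Without the highest cell, Sprr2h in Krt10 cells was 0.47 and Flg2 with both keratins 0.39 (with alopecia against without), and without alopecia against WT Flg2 was -0.47 and Flg 0.12 with both keratins and Flg 1.09 in Krt79 cells. Without late cells Cdsn was 0.72 in Krt10 cells without alopecia against WT, and with alopecia against WT 0.26 with both keratins and 0.10 in Krt79 cells. Lor and Cdsn helped to choose the late cells, so nothing is read from their signs without those cells. At least 20 UMIs in each of the compared sums gave, in Krt10 cells, 3 in place of 6 lower with alopecia than without, 0 in place of 1 higher and 6 in place of 10 lower with alopecia than in WT, in cells with both keratins 0 in place of 5 lower with alopecia than without, and 3 in place of 9 and 3 in place of 5 higher between compartments. The last 3 settings were chosen after seeing the data. In those, the changes went with the cells or genes left out, and the cause was not tested in any setting. Of the 21 Lce genes Lce1m and Lce6a, and of the Sprr2 genes Sprr2a1, Sprr2a3, Sprr2f and Sprr2h, reached the count minimum in any ratio, and the others stayed under it in these counts.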

Other observations

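Barcodes removed by the cell filter held fewer member UMIs than kept cells, at 0.0770%, 0.0777% and 0.0779% of their UMIs in WT, with alopecia and without alopecia against 0.290%, 0.209% and 0.212% in kept cells. For the late members alone the order differed between libraries. Removed barcodes held them at 14.3 CPM in WT and kept cells at 37.6 CPM, while with alopecia removed barcodes held 30.3 CPM and kept cells 11.6 CPM, and without alopecia 25.8 and 24.4 CPM. The removed barcodes had median depths of 823, 770 and 851 UMIs.

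Lor UMIs were spread thinly over Krt5/Krt14 cells of all 3 CD45-negative libraries. In UP_Del without alopecia 254 of 5230 cells held 296 of them, at most 4 in any cell. In WT 15 of 543 cells held 19, and with alopecia 28 of 1083 cells held 35, at most 3 in any cell of either. In fibroblast cells Lor was at 0.668 to 0.726 CPM, against 6.04 CPM in these Krt5/Krt14 cells.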
